A study of Mus musculus with 6 samples.

Results

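The 10 genes described here encode tumor necrosis factor (TNF) and the proteins that assemble around its receptor: Tnf, Tradd, Traf1, Traf2, Ripk1, Ripk3, Birc2, Birc3, Cflar and Casp8. They were chosen by gene name, and all 10 were found among the 54532 genes of the expression table. Transcripts were measured by RNA sequencing in macrophages that came either from wild type (WT) mice or from progranulin knockout (PGRN KO) mice, in order to learn how the loss of PGRN changes macrophage transcription during fungal challenge. Progranulin is a secreted growth factor-like protein, and Grn is its gene. The WT group holds 3 libraries, replicates 1, 2 and 3, from C57BL/6J mice of genotype WT, and the PGRN KO group holds 3 libraries, replicates 4, 5 and 6, from C57BL/6J mice in which PGRN was knocked out. In both groups, macrophages labelled as coming from the peritoneal cavity were cultured overnight and then exposed for 6 hours to Candida albicans, with as many fungal cells as macrophages. All 6 libraries thus come from challenged cells, although the titles of the WT libraries call them controls, and no unchallenged library was analysed here. The ages of the mice were not stated in the labels. The text of the study instead describes bone marrow-derived macrophages and another ratio of fungus to cells, and the labels were followed. The methods describe the mice as matched for age and sex. The WT mice came from a university and the PGRN KO mice from an outside repository, so genotype and source of the animals cannot be told apart. Nothing in the labels says that libraries of a group came from separate animals, so p-values measure only the spread between these samples, which may be technical.

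TNF is a cytokine made in large amounts by activated macrophages, and it signals through the receptors TNFR1 and TNFR2. At TNFR1 the adaptor TRADD and the kinase RIPK1 bind the receptor's death domain, TRAF2 brings in the ubiquitin ligases cIAP1 (Birc2) and cIAP2 (Birc3), and the ubiquitin chains they build recruit the linear ubiquitin ligase and the kinases that turn on NF-kB. When this complex is not held together, RIPK1 joins FADD and caspase-8 in a cytosolic complex in which cFLIP (Cflar) restrains caspase-8, and when caspase-8 is inactive RIPK1 and RIPK3 can instead activate MLKL and necroptosis.

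The libraries held 15996786 to 17551619 fragments, as recovered from the deposited FPKM (fragments per kilobase of gene, scaled to library size). Grn, the deleted gene, was at 323, 337 and 325 FPKM in WT replicates 1, 2 and 3, and 1, 0 and 1 fragments were found in PGRN KO replicates 4, 5 and 6, as the labels say. The 6 macrophage markers on the list were above 0 in every library and summed to 7082 to 7416 FPKM in WT and 7231 to 9715 FPKM in PGRN KO, most of it Lyz2, while Csf1r was lower in PGRN KO (log2 difference -0.38, limma adjusted p = 0.0178) and Mertk higher (0.81, limma adjusted p = 0.00640). Among the 3 markers of large peritoneal macrophages, Gata6 was at 3.78 to 5.07 FPKM, Timd4 did not exceed 0.204 FPKM, and Icam2 was higher in PGRN KO (means 3.10 and 5.10 FPKM, limma adjusted p = 0.00914). Some markers of other cells differed between the groups. The 5 B cell markers summed to 4.70 to 6.06 FPKM in WT and 18.7 to 24.0 FPKM in PGRN KO, the 5 mast cell markers to 2.23 to 3.19 and 9.31 to 13.9 FPKM, and the 5 neutrophil markers to 67.8 to 73.3 and 42.5 to 43.7 FPKM, with the defining neutrophil marker Ly6g at 0 in every library. The neutrophil sum differed through S100a8, with means of 50.0 FPKM (WT) and 23.3 FPKM (PGRN KO), while Mmp8 was at 20.2 and 19.5 FPKM. S100a9 and Retnlg did not exceed 0.443 and 0.195 FPKM in any library, so this sum is no measure of neutrophil content. Among the mast cell markers, Kit alone had a lower mean in PGRN KO, with 0.345 FPKM (WT) and 0.210 FPKM (PGRN KO). The 6 T and NK cell markers summed to 2.51 to 3.40 FPKM in WT and 2.88 to 5.82 FPKM in PGRN KO. PGRN KO replicate 6 stood apart: its deviations from the mean of all libraries fell with gene length (Spearman's rho -0.471 across genes, which are not independent replicates), against 0.151 to 0.243 in the other libraries.

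Within the TNF signalling complex, Casp8 and Birc2 were higher and Ripk1 was lower in PGRN KO macrophages. Casp8 and Birc2 were 1.46-fold and 1.43-fold as high as in WT, and Ripk1 fell by 23.4%. The other 7 genes, Tnf among them, did not pass the test, which was limma on log2(FPKM + 1) with adjustment over all 8882 genes with a mean of at least 1 FPKM. These 3 of 10 genes stand beside 24.2% of all tested genes that passed, 10.4% higher and 13.8% lower, so the share of the complex that passed was near that of the transcriptome. The median difference of the 10 genes was -0.09 on this log2 scale, beside -0.03 for all tested genes. When the values were rescaled to TPM, 922 tested genes were higher and 608 lower, in place of 921 and 1230, and Ripk1 and Birc2 no longer passed. PGRN KO replicate 6 was the highest PGRN KO library for Tnf, Tradd, Traf1, Traf2 and Ripk3 and the lowest for Ripk1, Birc2, Birc3 and Cflar. The 3 longest gene models, those of Cflar (12669 bases), Traf1 (8819 bases) and Ripk1 (8344 bases), include 2 of the latter 4, and without this library Casp8 and Birc2 remained higher and Ripk1 remained lower. The part of B cell, mast cell and other non-macrophage transcripts in these differences was not tested. In bulk RNA, fewer cells of a type and less RNA per cell cannot be told apart.

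**Figure D1:**
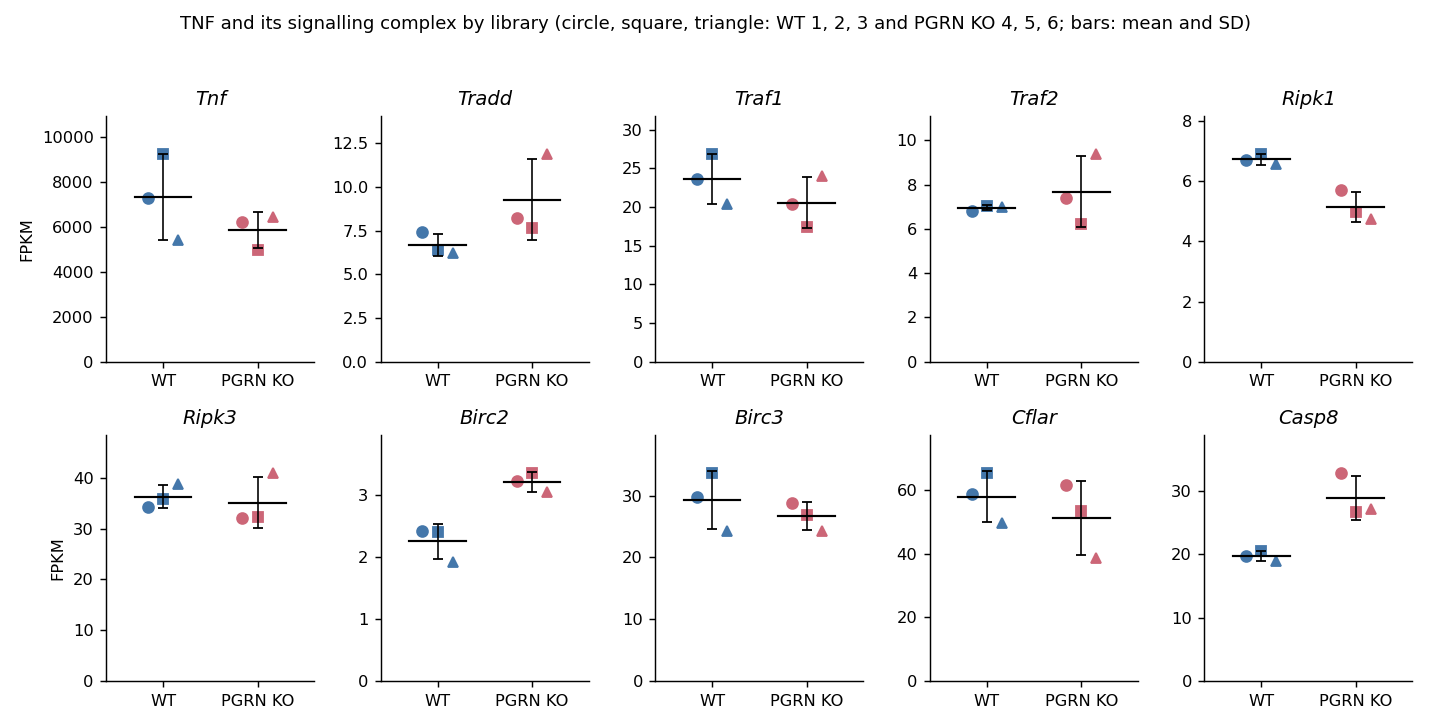
FPKM of the 10 genes in each library (vertical axes, FPKM, each starting at 0), with WT replicates 1, 2 and 3 in blue and PGRN KO replicates 4, 5 and 6 in red, and with bars for the mean and SD of 3 libraries. The WT and PGRN KO points do not overlap for Casp8, Birc2, Ripk1 and Tradd, and they overlap for the other 6 genes. Among all tested genes, 48.8% did not overlap.

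The ligand itself was the most abundant transcript of the complex. Tnf (ENSMUSG00000024401, GRCm38 chr17:35199381-35202007, minus strand) was at 7294, 9267 and 5418 FPKM in WT and at 6206, 4974 and 6447 FPKM in PGRN KO, and by its mean FPKM it ranked 4 among all genes of the table. The groups overlapped, since WT replicate 3 lay below PGRN KO replicates 4 and 6, and WT replicate 2 was the highest library of all. The means were 7326 ± 1925 FPKM (SD, n = 3) in WT and 5876 ± 789.9 FPKM (SD, n = 3) in PGRN KO, a log2 difference of -0.29 (95% interval -0.82 to 0.23, limma adjusted p = 0.365). With 154351 to 224644 fragments for Tnf in each library, counting error was small beside this spread.

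The receptors of TNF were not among the 10 genes and are given here for context. Tnfrsf1a, which encodes TNFR1, was at 62.5, 62.0 and 58.0 FPKM in WT and at 74.8, 67.7 and 85.2 FPKM in PGRN KO. Tnfrsf1b, which encodes TNFR2, was at 656, 702 and 600.2 FPKM in WT and at 574, 561 and 510 FPKM in PGRN KO. The groups did not overlap for either gene, with PGRN KO above WT for Tnfrsf1a and below WT for Tnfrsf1b, but neither passed the test. The log2 difference was 0.31 (95% interval 0.055 to 0.56, limma adjusted p = 0.0784) for Tnfrsf1a, and it passed in 7 of 19 alternatives, among them the TPM scale (limma adjusted p = 0.0259) and the omission of PGRN KO replicate 6 (limma adjusted p = 0.0361). For Tnfrsf1b it was -0.25 (95% interval -0.51 to 0.0074, limma adjusted p = 0.137), and it passed in 1 of 19, with sample quality weights (limma adjusted p = 0.0348).

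Of the adaptors, none passed the test. Tradd (ENSMUSG00000031887, chr8:105258286-105264609, minus strand), which links the receptor's death domain to TRAF2, was at 7.43, 6.38 and 6.24 FPKM in WT and at 8.23, 7.64 and 11.9 FPKM in PGRN KO. Every PGRN KO library lay above every WT library, as was the case in 1 direction or the other for 48.8% of all tested genes, but PGRN KO replicate 6 was far above the other two. The log2 difference was 0.40 (95% interval 0.011 to 0.78, limma adjusted p = 0.120) and was 0.22 without that library.

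Traf2 (ENSMUSG00000026942, chr2:25517982-25546940, minus strand), the scaffold that carries the cIAP proteins, was at 6.83, 7.04 and 7.01 FPKM in WT and at 7.40, 6.23 and 9.40 FPKM in PGRN KO. The WT libraries lay close together, with an SD of 0.112 FPKM, and the PGRN KO libraries fell on both sides of them. Traf1 (ENSMUSG00000026875, chr2:34941750-34961772, minus strand), a relative of Traf2 without its RING domain that is itself switched on by NF-kB, was at 23.7, 26.9 and 20.4 FPKM in WT and at 20.4, 17.4 and 24.0 FPKM in PGRN KO. These groups overlapped as well. The log2 differences were 0.11 for Traf2 (95% interval -0.22 to 0.44, limma adjusted p = 0.591) and -0.19 for Traf1 (95% interval -0.55 to 0.16, limma adjusted p = 0.366), and Traf1 passed in 1 alternative, with libraries weighted by their quality (limma adjusted p = 0.0484).

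The kinase RIPK1 stands at the branch between survival and death signalling, and its transcript was lower in PGRN KO. Ripk1 (ENSMUSG00000021408, chr13:34002363-34037147, plus strand) was at 6.69, 6.91 and 6.56 FPKM in WT and at 5.71, 4.99 and 4.76 FPKM in PGRN KO. The highest PGRN KO library stood below the lowest WT library. The means were 6.72 ± 0.177 and 5.15 ± 0.496 FPKM (SD, n = 3), a log2 difference of -0.33 ± 0.09 (SE, 95% interval -0.55 to -0.11, limma adjusted p = 0.0415). The call was lost when libraries were scaled by quantiles, by TPM or by the sum of fragments, with correction for gene length, with no filter on low values, and without any of the WT libraries or PGRN KO replicate 5, with adjusted p of 0.0585 to 0.192 in limma. Of its exonic bases, 6.12% overlap Gm17084 on the same strand, a gene listed at 0 in every library, and 2.89% overlap Serpinb6a on the other strand, and no source used here says whether fragments were counted by strand.

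Ripk3 (ENSMUSG00000022221, chr14:55784995-55788865, minus strand), the kinase that RIPK1 engages in necroptosis, was at 34.3, 36.0 and 38.7 FPKM in WT and at 32.2, 32.3 and 41.0 FPKM in PGRN KO. Here PGRN KO replicates 4 and 5 lay below all WT libraries and PGRN KO replicate 6 above them. The log2 difference was -0.05 (95% interval -0.34 to 0.23, limma adjusted p = 0.772).

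Birc2 and Birc3, which encode the ubiquitin ligases cIAP1 and cIAP2, lie on chromosome 9 with 11634 bases between them, and they did not give the same result. Birc2 (ENSMUSG00000057367, chr9:7818227-7837064, minus strand) was at 2.41, 2.41 and 1.92 FPKM in WT and at 3.23, 3.36 and 3.04 FPKM in PGRN KO. Every PGRN KO library lay above every WT library, on 159 to 291 fragments per library, on average the fewest of the 10 genes. The means were 2.25 ± 0.281 and 3.21 ± 0.156 FPKM (SD, n = 3), a log2 difference of 0.38 ± 0.10 (SE, 95% interval 0.14 to 0.61, limma adjusted p = 0.0360), which understates the fold of so low a gene. The call was lost on the TPM scale, with no filter on low values, and without any of the WT libraries or PGRN KO replicate 4 or 5, with adjusted p of 0.0664 to 0.122 in limma.

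Birc3 (ENSMUSG00000032000, chr9:7848699-7873186, minus strand), the NF-kB-induced member of the pair, was at 29.8, 33.7 and 24.3 FPKM in WT and at 28.9, 26.9 and 24.3 FPKM in PGRN KO. The groups overlapped over most of their range. The log2 difference was -0.12 (95% interval -0.44 to 0.20, limma adjusted p = 0.541). Of the 31-base words in its transcripts, 11.6% also occur in transcripts of other genes, Gm7019 sharing the most, so some fragments may have been assigned to another gene. The share was 9.40% for Cflar, 8.64% for Casp8, 8.51% for Ripk1, 3.50% for Traf2 and 2.69% for Birc2, with which Birc3 shared the most.

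Casp8 and Cflar likewise lie close together, on chromosome 1, with 36489 bases between them, and Cflar encodes a caspase-8 homolog without protease activity. Casp8 (ENSMUSG00000026029, chr1:58795374-58847503, plus strand), the initiator caspase of the complex, was at 19.7, 20.6 and 18.9 FPKM in WT and at 32.8, 26.6 and 27.1 FPKM in PGRN KO. The lowest PGRN KO library stood well above the highest WT library. The means were 19.7 ± 0.811 and 28.8 ± 3.48 FPKM (SD, n = 3), a log2 difference of 0.52 ± 0.11 (SE, 95% interval 0.27 to 0.77, limma adjusted p = 0.0155). Casp8 passed in 16 of 19 alternatives and did not when WT replicate 1, 2 or 3 was left out, with adjusted p of 0.0753, 0.0574 and 0.0691 in limma.

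Cflar (ENSMUSG00000026031, chr1:58711508-58758884, plus strand), the most abundant transcript of the complex after Tnf, was at 58.7, 65.4 and 49.4 FPKM in WT and at 61.4, 53.4 and 38.5 FPKM in PGRN KO. The groups overlapped, and PGRN KO replicate 6 was the lowest library. The log2 difference was -0.19 (95% interval -0.63 to 0.25, limma adjusted p = 0.481), and it was -0.0061 without that library. For Tradd, Ripk1, Birc2 and Casp8, the genes whose groups did not overlap, the two-sided exact permutation test gave p = 0.1. That is the smallest value that 3 against 3 libraries allow, and 48.8% of all tested genes did not overlap either.

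A RefSeq promoter window is shown for each of the 3 genes that passed the test. Each is the 250 bases before a RefSeq transcription start (build GRCm38.p6), written 5′ to 3′ on the strand of the gene. The window of Casp8 is chr1:58802252-58802501 on the plus strand, and its start lies 7128 bases inside the gene model of the table. The window of Birc2 is chr9:7837058-7837307 on the minus strand, and that of Ripk1 is chr13:34002113-34002362 on the plus strand, at the start of its gene model. Another window of Birc2, chr9:7836807-7837056, lies wholly within exons of its own gene and is not shown.
Casp8: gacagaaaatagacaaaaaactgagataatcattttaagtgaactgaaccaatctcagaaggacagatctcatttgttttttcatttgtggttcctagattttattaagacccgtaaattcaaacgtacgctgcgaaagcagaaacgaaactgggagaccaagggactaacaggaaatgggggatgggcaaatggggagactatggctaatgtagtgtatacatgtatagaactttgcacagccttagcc
Birc2: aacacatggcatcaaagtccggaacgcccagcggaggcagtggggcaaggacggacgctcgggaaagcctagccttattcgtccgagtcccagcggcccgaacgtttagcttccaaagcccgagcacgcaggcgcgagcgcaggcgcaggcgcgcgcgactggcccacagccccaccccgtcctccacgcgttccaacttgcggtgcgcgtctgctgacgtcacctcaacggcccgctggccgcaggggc
Ripk1: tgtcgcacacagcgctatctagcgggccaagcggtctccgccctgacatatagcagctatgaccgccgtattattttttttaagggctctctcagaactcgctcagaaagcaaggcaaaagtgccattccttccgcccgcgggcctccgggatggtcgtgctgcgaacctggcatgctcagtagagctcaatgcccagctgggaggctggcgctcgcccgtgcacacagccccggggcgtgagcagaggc

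Both strands of these windows were searched for the NF-kB consensus, for a pair of GAAA words 2 bases apart (a core of interferon-stimulated response elements) and for TTCNNNGAA (the core bound by STAT proteins). RefSeq windows were matched for 9 of the 10 genes, 11 windows in all. For 10 of these 11, the first 30 transcribed bases were found in transcripts of the same gene. The NF-kB consensus and the GAAA pair were found in 0 of 9 genes, beside 7.25% and 2.98% of the 32851 windows of the same length in the table. The letters TTCNNNGAA were found in 1 of 9 genes, beside 7.02% of all windows. That gene was Ripk1, with matches that begin 108 and 11 bases before its other RefSeq start at 34002874. These sites are shown on the plus strand with the match in capitals, at chr13:34002756-34002785 and chr13:34002844-34002873.
Ripk1 site at 108 bases: agaagctggtTTCCCGGAAggggcggaggc
Ripk1 site at 11 bases: gcgggcgggacttcaaacgTTCCCGGAAat

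In proportion to one another, some partners of the complex differed between the groups in every library. These ratios were chosen after the values had been seen. They cancel a scaling between libraries, but not a trend with gene length such as that of PGRN KO replicate 6. Casp8 over its inhibitor Cflar was 0.335, 0.315 and 0.383 in WT and 0.535, 0.498 and 0.703 in PGRN KO. Birc2 over Birc3 was 0.0811, 0.0714 and 0.0790 in WT and 0.112, 0.125 and 0.125 in PGRN KO. Both ratios of FPKM were higher in every PGRN KO library than in any WT library. Their means were 1.68-fold and 1.56-fold as high as in WT. The gene models of Casp8 and Cflar have 2893 and 12669 bases, and their ratio was highest in PGRN KO replicate 6. The part of gene length in this ratio was not tested.

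Traf1 over Traf2 was 3.46, 3.83 and 2.91 in WT and 2.75, 2.79 and 2.56 in PGRN KO, and here the PGRN KO libraries were lower, with a mean 0.794 times that of WT. Ripk1 over Ripk3 was 0.195, 0.192 and 0.169 in WT and 0.177, 0.155 and 0.116 in PGRN KO, and these groups overlapped. Among the receptors, Tnfrsf1a over Tnfrsf1b was 0.0953, 0.0882 and 0.0966 in WT and 0.130, 0.121 and 0.167 in PGRN KO. That ratio was 1.49-fold as high in PGRN KO. Of the 7 ratios computed, 6 did not overlap between the groups, each with a two-sided exact permutation p of 0.1, the smallest possible with 3 against 3 libraries. The groups did not overlap for 48.8% of all tested genes taken singly, and 4 of the 6 ratios have Casp8, Birc2 or Mlkl, which passed by themselves, as numerator.

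**Figure D2:**
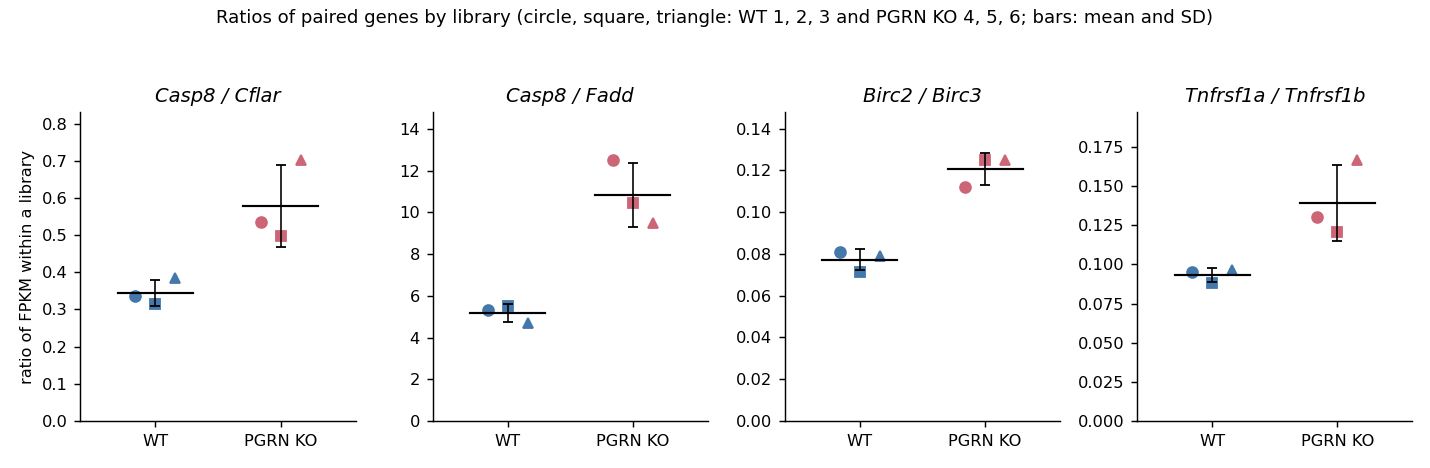
Ratios of FPKM within each library (vertical axes, ratio, each starting at 0) for Casp8 over Cflar, Casp8 over Fadd, Birc2 over Birc3 and Tnfrsf1a over Tnfrsf1b, with WT in blue, PGRN KO in red and bars for the mean and SD of 3 libraries. All PGRN KO points lie above all WT points in each panel, and the means of Casp8 over Fadd are 5.18 in WT and 10.8 in PGRN KO.

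Around the complex, a list of 39 further genes of TNF signalling was counted, of which 36 were tested and Rhbdf1, Diablo and Traf4 were too low. Of these, 6 were higher and 4 lower in PGRN KO, 27.8% in all beside the 24.2% of all tested genes, with a median log2 difference of 0.00095. Without PGRN KO replicate 6 the counts were 11 higher and 7 lower, where 41.3% of all tested genes passed, and without WT replicate 1 they were 3 and 0, where 8.03% of all tested genes passed. By role, 3 of 10 genes of the linear ubiquitin ligase and ubiquitin editing were higher and 1 lower, 1 of 10 downstream kinases and 1 of 4 genes of the receptors and ligand release were lower, and 0 of 5 other TRAF genes and Tank passed limma at the adjusted threshold.

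**Figure D3:**
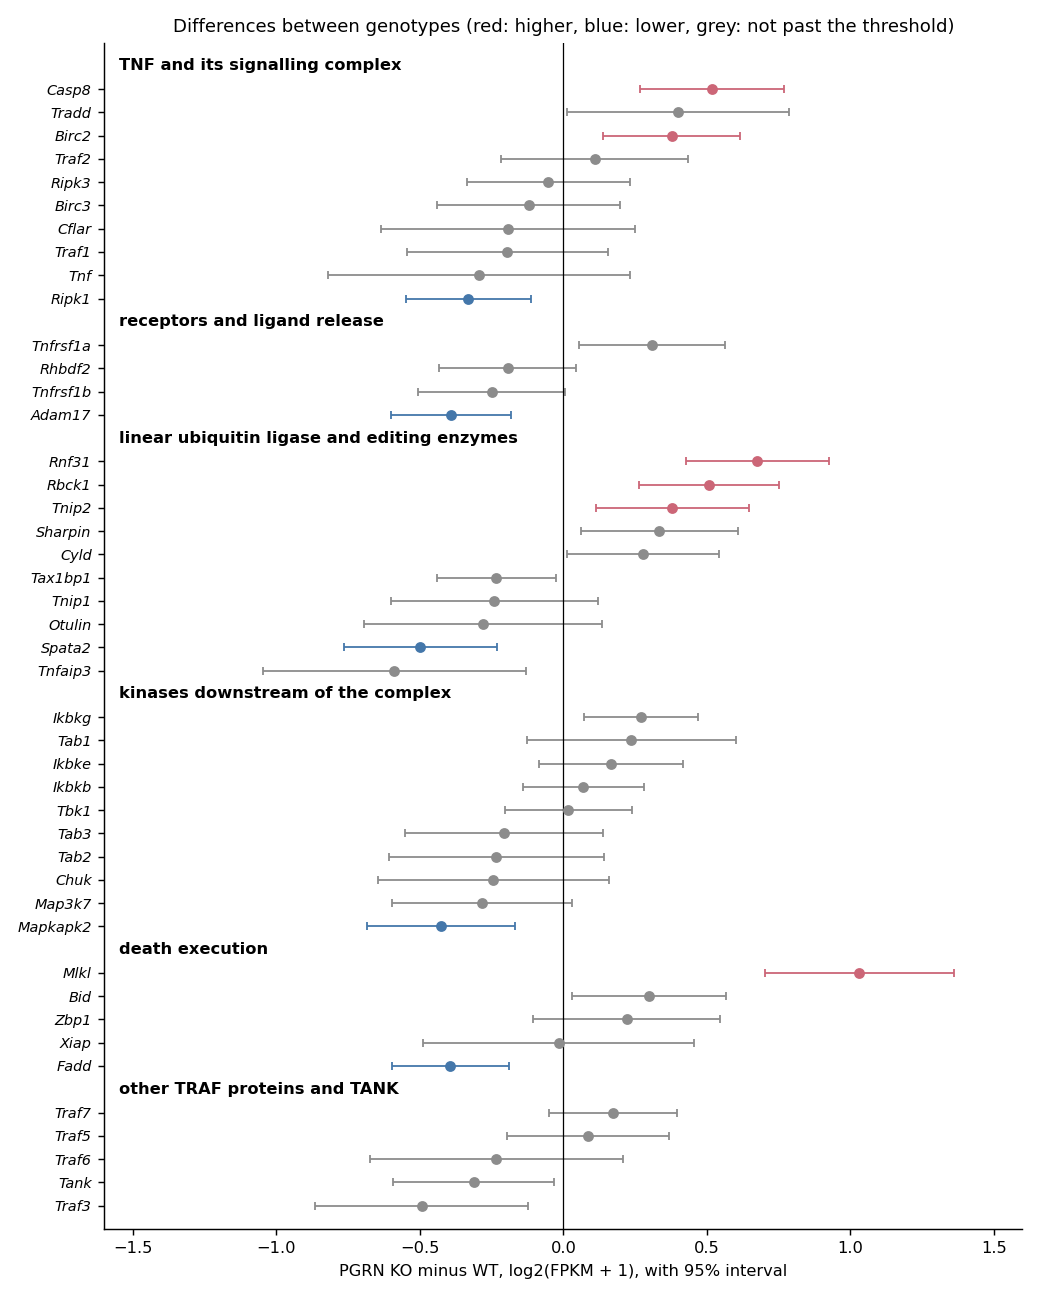
Log2 differences between PGRN KO and WT (horizontal axis, PGRN KO minus WT on the log2(FPKM + 1) scale) with 95% intervals from limma, for the 10 genes of the complex and for tested genes of the wider list by role. Red marks genes that were higher, blue genes that were lower, and grey genes that did not pass, with Mlkl at 1.03 as the largest difference and Casp8 at 0.52 as that of the complex.

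Downstream of RIPK3, the effector of necroptosis was higher in PGRN KO. Mlkl, which encodes this pore-forming protein, was at 34.4, 38.9 and 32.7 FPKM in WT and at 78.2, 60.4 and 82.4 FPKM in PGRN KO. The lowest PGRN KO library stood far above the highest WT library. The log2 difference was 1.03 ± 0.14 (SE, limma adjusted p = 0.00443), and the mean was 2.09-fold as high as in WT. Mlkl passed in every alternative run, with an adjusted p in limma of at most 0.0317.

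Fadd, the adaptor that joins caspase-8 to RIPK1, went the other way. It was at 3.71, 3.72 and 4.03 FPKM in WT and at 2.62, 2.54 and 2.85 FPKM in PGRN KO, with no overlap, a log2 difference of -0.39 ± 0.09 (SE, limma adjusted p = 0.0198). Of its exonic bases, 6.12% overlap Faddos on the other strand. The call was lost on the TPM scale (adjusted p = 0.0814 in limma) and with the sum of fragments as library size (adjusted p = 0.0648 in limma), and it was also lost without any of the WT libraries or PGRN KO replicate 4 or 5. Casp8 over Fadd was 5.31, 5.52 and 4.70 in WT and 12.5, 10.4 and 9.51 in PGRN KO, 2.09-fold as high in PGRN KO, and Mlkl over Ripk3 was 1.00, 1.08 and 0.843 in WT and 2.43, 1.87 and 2.01 in PGRN KO, 2.15-fold as high.

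The linear ubiquitin ligase stabilises the receptor complex and consists of HOIP (Rnf31), HOIL-1 (Rbck1) and SHARPIN. Rnf31, its catalytic subunit, was at 8.78, 9.28 and 8.21 FPKM in WT and at 14.9, 12.9 and 16.1 FPKM in PGRN KO. Rbck1 was at 3.72, 3.29 and 4.02 FPKM in WT and at 5.63, 5.17 and 6.15 FPKM in PGRN KO. Both were higher in every PGRN KO library, 1.67-fold for Rnf31 (limma adjusted p = 0.00665) and 1.54-fold for Rbck1 (limma adjusted p = 0.0151). Rnf31 passed in every alternative, whereas Rbck1 did not without WT replicate 1 or 2. Sharpin, added here after its values were seen because it completes the ligase, was at 4.54, 4.06 and 4.49 FPKM in WT and at 5.09, 5.52 and 6.78 FPKM in PGRN KO, without overlap, and it did not pass (log2 difference 0.33, 95% interval 0.063 to 0.61, limma adjusted p = 0.0759).

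Of the enzymes and adaptors that edit these chains, Tnip2, an A20-binding adaptor, was at 14.8, 16.0 and 13.9 FPKM in WT and at 19.2, 17.6 and 22.5 FPKM in PGRN KO, with a log2 difference of 0.38 (limma adjusted p = 0.0495). Spata2, which brings the deubiquitinase CYLD to the complex, was at 12.0, 13.4 and 12.4 FPKM in WT and at 8.97, 9.64 and 7.39 FPKM in PGRN KO, with a log2 difference of -0.50 (limma adjusted p = 0.0217). Neither gene overlapped between the groups. Tnfaip3, which encodes A20 and was likewise named after its values were seen, was at 181, 225 and 140 FPKM in WT and at 138, 118 and 101 FPKM in PGRN KO. Its groups stood apart by less than 2 FPKM, and it did not pass (log2 difference -0.59, 95% interval -1.05 to -0.13, limma adjusted p = 0.0666).

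Adam17, the protease that sheds TNF and its receptors from the cell surface, was at 25.3, 25.8 and 24.1 FPKM in WT and at 19.3, 20.0 and 17.4 FPKM in PGRN KO. Mapkapk2, the kinase that phosphorylates RIPK1 and keeps the Tnf mRNA stable and translated, was at 549, 605 and 506 FPKM in WT and at 410.0, 387 and 435 FPKM in PGRN KO. Every PGRN KO library lay below every WT library for both genes. The log2 differences were -0.39 for Adam17 (limma adjusted p = 0.0217) and -0.43 for Mapkapk2 (limma adjusted p = 0.0321). These 2 calls, and those of Tnip2 and Spata2, were lost without any of the WT libraries or PGRN KO replicate 4. Those of Adam17 and Spata2 were also lost on the TPM scale (limma adjusted p = 0.131 and 0.103) and with the sum of fragments (limma adjusted p = 0.085 and 0.065). That of Tnip2 was also lost with pseudocounts of 0.1 and 0.01 and with no mean-variance trend (limma adjusted p = 0.0511 to 0.0532). With no filter on low values, those of Tnip2, Spata2 and Mapkapk2 were lost.

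Among 22 other ligands and receptors of the TNF family, 15 were tested, 4 were higher and 0 were lower in PGRN KO by limma at the adjusted threshold, 26.7% in all beside the 24.2% of all tested genes, and the median log2 difference was 0.05. Without PGRN KO replicate 6 (41.3% of all tested genes called), 6 genes were higher and 4 lower. Without WT replicate 1 (8.03% called), 2 were higher and 0 lower. Tnfsf10, which encodes the death ligand TRAIL, was at 0.760, 1.08 and 0.568 FPKM in WT and at 5.64, 3.96 and 4.15 FPKM in PGRN KO. Tnfrsf21, which encodes death receptor 6, was at 5.48, 5.35 and 6.11 FPKM in WT and at 11.2, 12.1 and 8.51 FPKM in PGRN KO. Neither overlapped between the groups. The means were 5.71-fold as high for Tnfsf10 and 1.87-fold as high for Tnfrsf21 (limma adjusted p = 0.00870). Both passed in every alternative in which they were tested. Tnfsf10 averaged under 1 FPKM in WT and entered the main test only through the PGRN KO libraries, so its main p-value is not given. With no filter on low values its limma adjusted p was 0.00812. In the other direction, Tnfsf14 was at 1.16, 0.659 and 1.35 FPKM in WT and at 0.156, 0.286 and 0.282 FPKM in PGRN KO. Its low PGRN KO values kept it out of the test, so the filter had a part in the split of higher and lower genes. With no filter, all 22 genes were tested, and 3 were higher and 0 lower (5.96% of all tested genes called).

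Cd40, a costimulatory receptor of macrophages and B cells that signals through TRAF proteins, was at 16.7, 20.4 and 15.1 FPKM in WT and at 38.4, 27.3 and 48.8 FPKM in PGRN KO (2.19-fold, limma adjusted p = 0.0149). Ltb, the lymphotoxin gene 3060 bases from Tnf, was at 0.946, 1.47 and 1.21 FPKM in WT and at 2.55, 2.47 and 5.19 FPKM in PGRN KO (2.82-fold, limma adjusted p = 0.0285). PGRN KO replicate 6 was the highest library for both. The call of Cd40 was lost with no filter on low values and without WT replicate 1 or 3 (limma adjusted p = 0.0518 to 0.0637), and that of Ltb with no filter and without any of the WT libraries (limma adjusted p = 0.0713 to 0.105). B cells also express both genes, and the B cell markers moved with them: 5 of 5 were above 0 in every library, their sums are given above, and Ighm was at 2.88 to 3.96 FPKM in WT and 12.2 to 15.2 FPKM in PGRN KO, the highest again being PGRN KO replicate 6. The part of B cells in the values of Cd40 and Ltb was not tested.

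**Figure D4:**
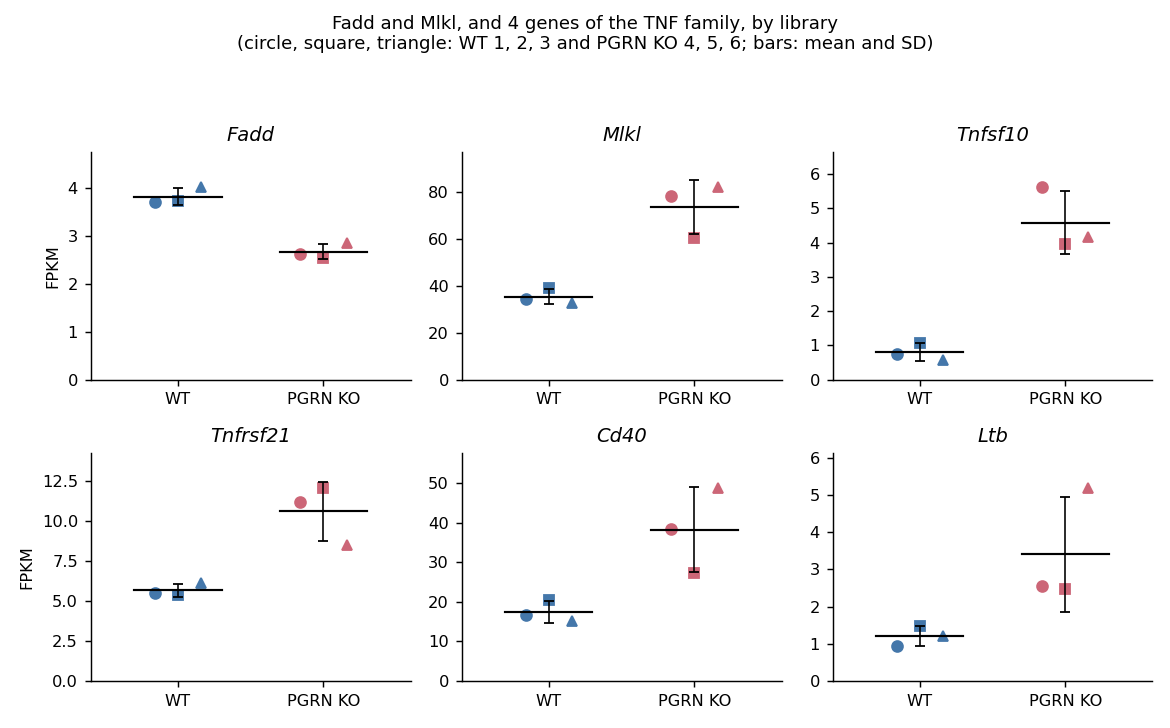
FPKM in each library (vertical axes, FPKM, each starting at 0) of Fadd and Mlkl and of the TNF family genes Tnfsf10, Tnfrsf21, Cd40 and Ltb, with WT in blue, PGRN KO in red and bars for the mean and SD of 3 libraries. WT and PGRN KO do not overlap in any panel, and Fadd is the gene whose PGRN KO points, 2.54 to 2.85 FPKM, lie below those of WT.

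The members of the complex also differed in how far the libraries of a group were spread. Among WT libraries the coefficient of variation was 26.3% for Tnf, 16.1% for Birc3, 13.8% for Cflar and 13.8% for Traf1, but 4.11% for Casp8, 2.63% for Ripk1 and 1.61% for Traf2. The median over the 10 genes was 11.1%, beside 6.97% over all tested genes. WT replicate 2 was the highest and WT replicate 3 the lowest WT library for 6 of the 10 genes, namely Tnf, Traf1, Ripk1, Birc3, Cflar and Casp8. This order was found in 26.4% of all tested genes. It was picked from the values of these same genes, which share the same 3 libraries, so the count is a description and not a test. In PGRN KO the most variable were Tradd at 25.0%, Cflar at 22.7% and Traf2 at 20.9%.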

How the data were processed

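Polyadenylated RNA of 6 libraries, 3 per genotype, was sequenced. The submitters' processing notes name HISAT2 2.0.5, featureCounts 1.5.0-p3 and DESeq2 1.20.0 with GRCm38, the methods name HTSeq for counting, and the authors deposited FPKM per gene with gene lengths. In each library, the product of deposited FPKM and length was a whole multiple of a common step (tolerance 0.001), which gave the fragments. Counting error is smaller for deeply covered genes (Tnf) than for low ones (Birc2, Tradd), and fragments without molecular identifiers are not independent molecules.

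Genotypes were compared in limma 3.58.1 (R 4.3.3) on log2(FPKM + 1), which understates changes of low genes, two-sided and without covariates, using the mean-variance trend option, Benjamini-Hochberg adjustment over the 8882 genes that averaged 1 FPKM or more, and a threshold of 0.05. As the deposited unit is FPKM, limma was the main test, voom was run on the recovered fragments, and the count model of the authors was not run. The procedure was also run on simulated data with the same spread setting for all genes and no trend with gene length. These libraries differ from that setting, so the run cannot vouch for the calls made here. Named genes were the 10 members, Grn, Tnfrsf1a, Tnfrsf1b and listed genes past the threshold, of which some are not reported here, and exceptions are stated. The members and lists were chosen with earlier results of these data known. Coordinates are those of the table, and all 10 members matched GENCODE M21. Shared sequence was counted as 31-base words, and promoters are 250 bases from RefSeq. Alternatives were other pseudocounts (0.1 and 0.01), filters (none, or at least 5 FPKM), scalings (TPM, quantiles, sum of fragments), no trend, sample quality weights, voom on recovered fragments, correction for gene length with loess, protein-coding genes alone, and leaving out each library.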

Additional observations from a re-analysis of the deposited data

How the results depend on the processing

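The 3 calls within the complex rest on 3 libraries per group and changed with the setting. In place of 2 members higher, 1 was higher with no filter, with a mean of at least 5 FPKM (where Birc2 was not tested) and on the TPM scale, and 0 to 2 were higher when 1 library was left out. In place of 1 member lower, 0 were lower with no filter, on the TPM scale, with quantile normalization, with the sum of fragments as library size and with length correction, 2 with sample quality weights, and 0 to 1 when 1 library was left out. These counts stand beside shares of all tested genes that also changed. In the main fit 24.2% passed, beside 5.96% with no filter, 17.2% on the TPM scale and 30.5% with at least 5 FPKM. The share was 24.6% with quantile normalization, 21.1% with the sum of fragments, 31.7% with length correction and 47.6% with sample quality weights. When 1 library was left out it was 8.03% to 41.3%. Of 189 comparisons of a member's value with an alternative, 160 kept direction and side of the threshold, 19 kept direction but no longer passed, 1 newly passed and 9 changed sign. The changes of sign were those of Tnf with quantile normalization (0.037), Traf2 without PGRN KO replicate 6 (-0.030, and up to 0.23 without another library) and with length correction as well (-0.0037), Ripk3 on the TPM scale (0.00013), with the sum of fragments (0.044) and without PGRN KO replicate 4 (0.0053) or 5 (0.0027, and down to -0.17 without replicate 6), and Cflar with length correction (0.0071), also without PGRN KO replicate 6 (0.049). None of these values passed the threshold.

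For the wider list, 6 genes higher became 11 with sample quality weights, 10 with length correction, 11 with length correction and without PGRN KO replicate 6, and 3 to 11 when 1 library was left out. Its 4 genes lower became 2 with no filter, 1 on the TPM scale, 1 with the sum of fragments, 10 with sample quality weights, and 0 to 7 when 1 library was left out. For the other TNF family genes, 4 higher became 2 to 6 when 1 library was left out, and 0 lower became 4 with sample quality weights, 2 with length correction, 4 with length correction and without PGRN KO replicate 6, and 0 to 4 when 1 library was left out. The share of all tested genes that passed moved as well, from 5.96% with no filter to 47.6% with sample quality weights. It was 41.3% with length correction and without PGRN KO replicate 6. The cause was not tested. Over all tested genes, 42.8% of calls were higher, beside 60.3% on the TPM scale and 62.9% with the sum of fragments. No paired analysis was possible because replicate numbers 1 to 3 occur in WT alone and 4 to 6 in PGRN KO alone.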
